A study of Mus musculus with 6 samples.

Results

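The genes described here encode liver-secreted hormones (hepatokines) and ligands of the activin branch of the transforming growth factor β family. They are Inhba, Inhbc and Inhbe (activin β subunits), Fst (follistatin), Fgf21, Gdf15, Ahsg and Fetub (fetuins), Lect2 and Enho. All 10 were found by gene name among the 54532 genes of the deposited table, and all 10 passed the filter on low values. RNA was sequenced from whole livers of 3 mice with a hepatocyte Notch1 knockout and 3 control mice carrying floxed Notch1 alleles (Notch1fl/fl), all untreated. The sources used here do not give the Cre line, whether controls carried Cre, or the animals' sex, age, diet and hour of collection. The table names 3 columns NC, and these were assigned to the controls because KO names the only other group.

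Activins are dimers of inhibin β subunits that bind activin type II receptors, recruit type I receptors and lead to phosphorylation of Smad2 and Smad3. Follistatin binds activins and blocks them. Inhbc and Inhbe are expressed mainly in hepatocytes, whereas Inhba is expressed in many tissues. FGF21 signals through FGF receptors with the co-receptor β-Klotho, and its gene is induced in liver by fasting through PPARα and by the integrated stress response through ATF4. GDF15, a stress hormone that lowers food intake, acts on the receptor GFRAL in the hindbrain.

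Levels are FPKM, reads scaled for gene length and library size, so genes can be compared per length. Log2 fold changes are knockout minus control on the log2(FPKM + 1) scale, which understates changes of low genes. Tests are limma with Benjamini-Hochberg adjustment over 12022 genes and a threshold of 0.05. Libraries held 15612924 to 17511961 reads in genes. Notch1 measured 0.377 ± 0.141 FPKM in knockouts and 0.812 ± 0.177 FPKM in controls (SD, n = 3 each) without overlap; a gene-level value covers all exons and all liver cells. Hepatocyte markers were abundant in every liver, with Alb at 20452 to 29086 FPKM in knockouts and 29979 to 37515 FPKM in controls. Knockout 2 stood apart in inflammation: Saa2, an acute phase protein, measured 813, 8.62 and 1537 FPKM in knockouts 1 to 3 and 12.2, 4.79 and 3.94 FPKM in controls 1 to 3. Mesothelial markers were higher in the knockouts, their 14 genes summing to 148 to 255 FPKM there and to 10.1 to 82.1 FPKM in controls. In whole tissue, fewer cells of a type and less RNA per cell cannot be told apart.

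None of the 10 genes passed the threshold, which 3 of all genes tested did (0.0250%: Bcl6 higher, Cish and Wdfy1 lower). The count over all genes was 0 without knockout 1 or control 2, 1 without control 1, 29 without knockout 2 and 58 without control 3. Inhba, Inhbc and Fetub were lower in every knockout than in any control. That is 3 of 10 genes, beside 10.6% of all genes tested that were lower without overlap. No gene of the 10 was higher without overlap, beside 9.20% of all genes, and 19.8% did not overlap in either direction. The same 3 were those at an unadjusted p under 0.05, which 13.9% of all genes reached. Of all genes, 7.06% reached it with a lower and 6.83% with a higher level in the knockouts. Means were lower in the knockouts for 7 of the 10 genes and higher for Fgf21, Fst and Enho. The median log2 change of the 10 was -0.33, beside -0.0081 over all genes.

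**Figure D1:**
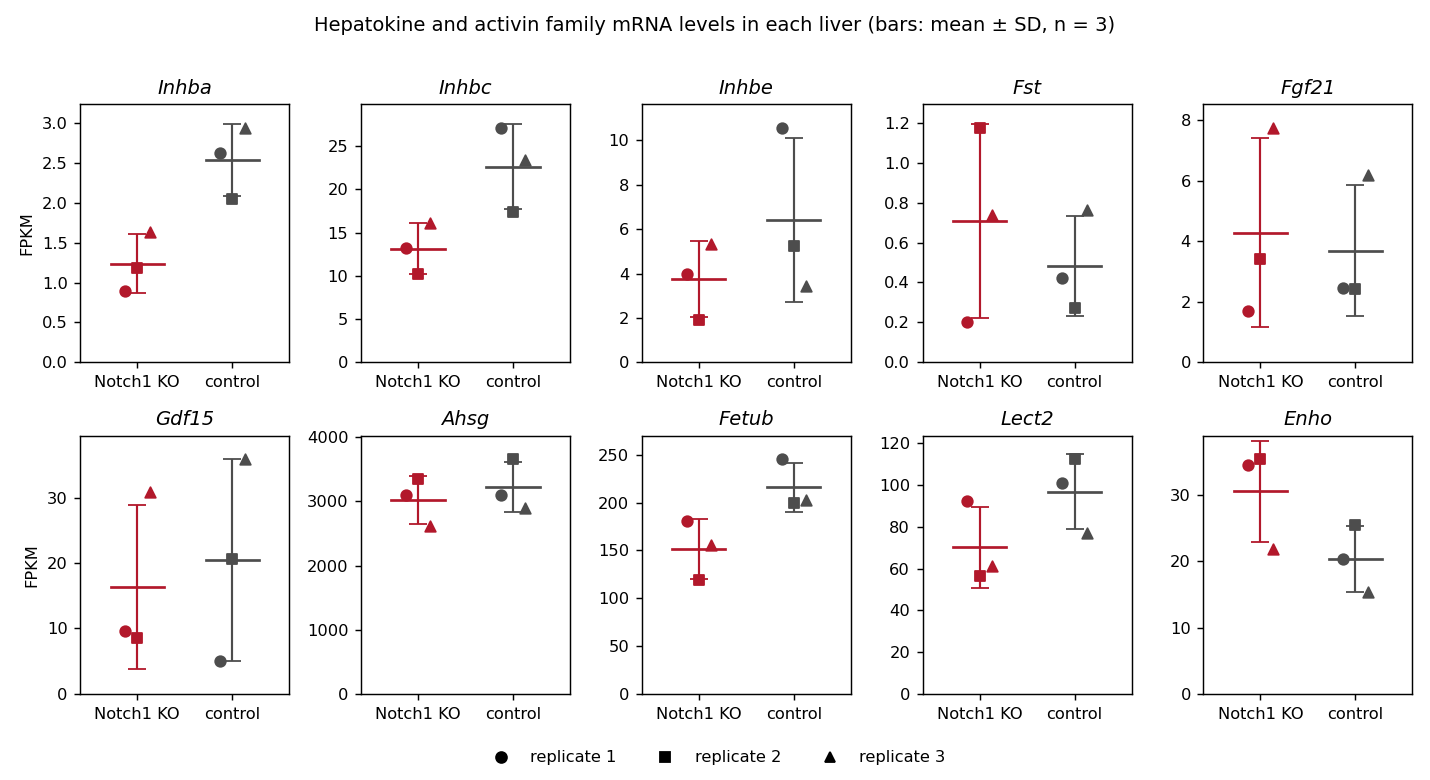
FPKM of each gene in each liver (y axes start at 0 and differ between panels), with knockouts on the left and controls on the right of each panel. Points are livers with the replicate number as shape, and bars give the mean and SD over 3 livers. Only in the panels of Inhba, Inhbc and Fetub do all 3 knockouts lie below all 3 controls.

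Inhba encodes the βA subunit, whose homodimer is activin A (ENSMUSG00000041324, GRCm38 chromosome 13, 16011851 to 16031621, plus strand). It measured 0.900, 1.18 and 1.63 FPKM in knockouts 1 to 3 and 2.62, 2.05 and 2.94 FPKM in controls 1 to 3. The highest knockout lay below the lowest control. These levels rested on 86, 151 and 178 reads in the knockouts and 251, 210 and 312 reads in the controls. The mean was 1.24 ± 0.368 FPKM in knockouts and 2.54 ± 0.449 FPKM in controls (SD, n = 3 each), a ratio of 0.487. Its log2 fold change was -0.67 (SE 0.15, 95% interval -1.03 to -0.30, limma adjusted p = 0.165), the smallest p among the 10 genes. Among 13 alternative analyses the log2 change was negative in all, with adjusted p between 0.111 and 0.407. Mesothelial markers went the other way: all 13 tested were higher in the knockouts, Msln at 36.6, 60.7 and 41.8 FPKM there and at 2.02, 3.90 and 19.1 FPKM in controls. Stellate and fibroblast markers were higher in 10 of 14 genes. The part of either cell type in the Inhba level was not tested.

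Inhbc encodes the βC subunit (ENSMUSG00000025405, chromosome 10, 127356322 to 127370431, minus strand). It was the most abundant β subunit gene per length, at 13.2, 10.2 and 16.1 FPKM in knockouts 1 to 3 and 27.1, 17.4 and 23.4 FPKM in controls 1 to 3. The groups did not overlap, but knockout 3 and control 2 lay close together. The mean was 13.1 ± 2.96 FPKM in knockouts and 22.6 ± 4.91 FPKM in controls (SD, n = 3 each), a ratio of 0.582. The log2 change was -0.74 (SE 0.21; 95% interval -1.23 to -0.25, adjusted p = 0.210). With libraries scaled by total reads the groups overlapped, with a log2 change of -0.60.

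Inhbe encodes the βE subunit and lies 1910 bases from Inhbc on the same strand (ENSMUSG00000047492, chromosome 10, 127348857 to 127354411). Unlike those of its neighbour, its values overlapped, at 3.997, 1.91 and 5.31 FPKM in knockouts 1 to 3 and 10.6, 5.25 and 3.45 FPKM in controls 1 to 3. Control 1 was the highest liver and knockout 2 the lowest. Its log2 change was -0.60 (SE 0.40, 95% interval -1.55 to 0.35, limma adjusted p = 0.559). It depended on single livers, being -0.22 without control 1, -0.29 without knockout 2 and -0.91 without control 3. Inhbc exceeded Inhbe in all 6 livers. The file's gene model for Inhbe is 5319 bases long and starts 2563 bases upstream of the RefSeq start site, so a shorter transcript would have a higher level per length than the FPKM given.

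Fst encodes follistatin, the activin antagonist (ENSMUSG00000021765, chromosome 13, 114452290 to 114458951, minus strand). It was the lowest of the 10 genes, at 0.204, 1.17 and 0.739 FPKM in knockouts 1 to 3 and 0.421, 0.272 and 0.761 FPKM in controls 1 to 3, on 14 to 108 reads. Knockout 2 was highest and knockout 1 lowest, so both extremes were knockouts. Its log2 change was 0.17 (95% interval from -0.38 to 0.72, limma adjusted p = 0.796), and it was -0.024 without knockout 2 and 0.40 without knockout 1.

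Among the other genes of the activin network none passed the threshold by limma. Of 22 listed, 21 were in the table and 15 were tested, with 0 passing the threshold and a median log2 change of 0.10. At an unadjusted p under 0.05, 2 were higher and 1 lower, beside 6.83% and 7.06% of all genes tested. Without overlap, 1 was higher and 1 lower, beside 9.20% and 10.6% of all genes tested. Bambi, a decoy receptor that dampens this signalling, measured 0.942, 1.38 and 0.905 FPKM in knockouts and 0.555, 0.409 and 0.704 FPKM in controls, without overlap (log2 change 0.41, adjusted p = 0.256). Acvr2a, a type II receptor, measured 2.82, 2.70 and 2.63 FPKM in knockouts and 3.74, 2.94 and 3.62 FPKM in controls, also without overlap (log2 change -0.25, adjusted p = 0.344). Acvr1, a type I receptor, had a log2 change of -0.29 (adjusted p = 0.371). Fstl1, a follistatin-like glycoprotein of mesenchymal cells, measured 3.37, 9.26 and 6.87 FPKM in knockouts and 1.19, 2.43 and 4.03 FPKM in controls (adjusted p = 0.296). Its values overlapped, with the highest in knockout 2 and the lowest in control 1. The same livers were the extremes for the summed stellate and fibroblast markers (80.0 to 124 FPKM in knockouts, 56.4 to 103 FPKM in controls). They were also the extremes for the summed mesothelial markers (148 to 255 FPKM in knockouts, 10.1 to 82.1 FPKM in controls). The part of either cell type in the Fstl1 level was not tested. Smad2, Smad3 and Smad4, the signal transducers, overlapped between groups with log2 changes of 0.10, -0.06 and 0.04. Inhbb, the βB subunit, measured 0.676, 1.30 and 0.550 FPKM in knockouts and 0.767, 0.499 and 0.792 FPKM in controls. Inha, Fstl3, Acvr1c, Acvr2b, Igsf1 and Tdgf1 were below the filter.

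Fgf21 (ENSMUSG00000030827, chromosome 7, 45613886 to 45615490, minus strand) and Gdf15 (ENSMUSG00000038508, chromosome 8, 70629393 to 70632456, minus strand) differed more among livers of the same group than between group means. Fgf21 measured 1.69, 3.41 and 7.75 FPKM in knockouts 1 to 3 and 2.45, 2.43 and 6.20 FPKM in controls 1 to 3. The liver numbered 3 was the highest of each group. Its mean was 4.28 ± 3.12 FPKM in knockouts and 3.69 ± 2.17 FPKM in controls (SD, n = 3 each), with a log2 change of 0.09 (95% interval -1.01 to 1.198, adjusted p = 0.955). The sign turned to -0.35 without knockout 3 and to -0.08 and -0.09 without control 1 and control 2, and the change was 0.50 without knockout 1 and 0.45 without control 3. Gdf15 measured 9.64, 8.56 and 30.8 FPKM in knockouts 1 to 3 and 5.04, 20.6 and 35.8 FPKM in controls 1 to 3, a spread of 7.11-fold within the controls. Its log2 change was -0.19 (95% interval -1.90 to 1.52, adjusted p = 0.939), and without single livers it ran from -0.93 (without control 1) and -0.74 (without knockout 3) to 0.05, 0.13 and 0.37 (without knockout 1, knockout 2 and control 3). These intervals span differences of 2-fold in either direction, so differences of that size were not detectable.

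The livers with the most Fgf21 and Gdf15 were also high in genes of fasting and stress. The 3 genes given next were chosen after their values were seen. Pdk4, a kinase that spares glucose in fasting, measured 5.37, 8.20 and 35.4 FPKM in knockouts 1 to 3 and 10.9, 15.6 and 70.7 FPKM in controls 1 to 3. Igfbp1, an insulin-repressed IGF-binding protein, measured 84.9, 141 and 348 FPKM in knockouts and 88.6, 296 and 590 FPKM in controls. Atf3, a stress-induced transcription factor, measured 0.528, 3.50 and 9.56 FPKM in knockouts and 0.774, 0.725 and 6.79 FPKM in controls. For each of these genes the liver numbered 3 was the highest of its group. Over the 6 livers, Pearson's r of Fgf21 on the log2 scale was 0.97 with Atf3, 0.86 with Pdk4 and 0.78 with Igfbp1, whereas r of Gdf15 was 0.68 with Atf3, 0.85 with Pdk4 and 0.94 with Igfbp1. Between Fgf21 and Gdf15 it was 0.74. These describe 6 points that share their libraries. The part of feeding state or handling was not tested.

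**Figure D2:**
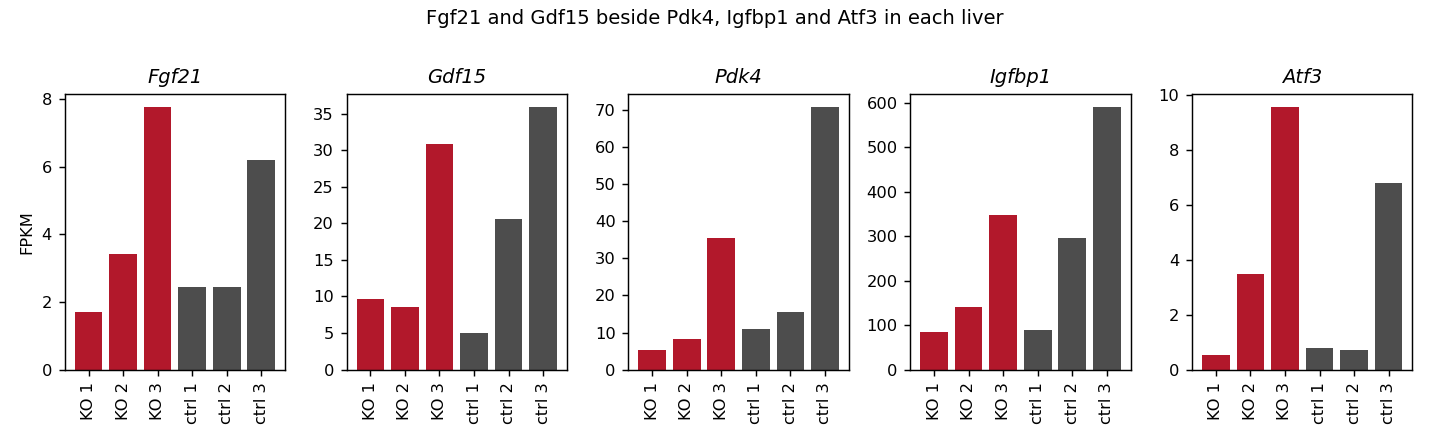
FPKM of Fgf21, Gdf15, Pdk4, Igfbp1 and Atf3 (y axes, starting at 0) in each liver, knockouts in red on the left and controls in grey on the right. Bars are single livers; in each panel knockout 3 is the highest knockout and control 3 the highest control.

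Promoter sequence is shown for Fgf21 and Inhbe, which share an element, and for Inhba, Inhbc and Fetub, whose groups did not overlap. RefSeq held a promoter entry for 8 of the 10 genes (build GRCm38.p6), all except Fst and Enho, in 10 windows, since Gdf15 and Fetub each have a pair of start sites; the Fetub window shown is the upstream one. Each run is the 250 bases before the RefSeq start site, 5′ to 3′ on the gene's strand. The windows are chr7:45615491-45615740 (minus strand), chr10:127351849-127352098 (minus strand), chr13:16011601-16011850 (plus strand), chr10:127370549-127370798 (minus strand) and chr16:22918132-22918381 (plus strand). Capitals mark matches on either strand to TGATGNAA (the ATF4 response element), TGGGAA (the core bound by RBPJ, the DNA-binding partner of Notch), AGGTCA (a nuclear receptor half-site) or TTCNNNGAA (a STAT element).
Fgf21: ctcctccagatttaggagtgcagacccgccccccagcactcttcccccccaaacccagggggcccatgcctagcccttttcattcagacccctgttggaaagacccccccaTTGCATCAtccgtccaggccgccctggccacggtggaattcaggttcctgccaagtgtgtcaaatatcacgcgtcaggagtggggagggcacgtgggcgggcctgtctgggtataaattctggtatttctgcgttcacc
Inhbe: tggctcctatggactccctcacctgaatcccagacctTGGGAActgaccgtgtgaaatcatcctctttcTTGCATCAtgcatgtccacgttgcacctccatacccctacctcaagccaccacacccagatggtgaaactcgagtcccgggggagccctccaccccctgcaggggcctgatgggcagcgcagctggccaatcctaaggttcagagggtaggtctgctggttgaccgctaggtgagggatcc
Inhba: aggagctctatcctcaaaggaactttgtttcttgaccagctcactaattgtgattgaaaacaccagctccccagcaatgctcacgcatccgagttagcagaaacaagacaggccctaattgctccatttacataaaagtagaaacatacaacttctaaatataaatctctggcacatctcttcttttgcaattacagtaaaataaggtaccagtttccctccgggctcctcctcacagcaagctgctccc
Inhbc: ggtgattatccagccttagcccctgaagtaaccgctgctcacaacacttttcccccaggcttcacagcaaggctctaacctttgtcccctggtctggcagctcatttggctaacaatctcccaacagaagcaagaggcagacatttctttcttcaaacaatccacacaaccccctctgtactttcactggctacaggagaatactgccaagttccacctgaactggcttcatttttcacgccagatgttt
Fetub: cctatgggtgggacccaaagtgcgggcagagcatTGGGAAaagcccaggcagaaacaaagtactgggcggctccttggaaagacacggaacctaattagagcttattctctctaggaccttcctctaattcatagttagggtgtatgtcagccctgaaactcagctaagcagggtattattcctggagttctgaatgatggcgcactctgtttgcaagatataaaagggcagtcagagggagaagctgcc
The ATF4 element was found in 2 of the 8 genes with an entry, Fgf21 and Inhbe, in both as TTGCATCA on the opposite strand, 139 and 181 bases before the start. That is 2 of the 10 windows, beside 3.45% of all 32851 promoter windows of this length. The RBPJ core was found in 4 of the 10 windows (Inhbe, both of Fetub and 1 of Gdf15) and in 21.6% of all windows. AGGTCA was found in 1 of the 10, the other Gdf15 window, and in 14.0% of all windows. TTCNNNGAA was found in 0 of the 10 and in 7.02% of all windows. The windows of Inhba and Inhbc hold none of these motifs. A match is a description of the sequence and not evidence of binding.

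Genes of the integrated stress response, the ATF4 program known to induce Fgf21, Gdf15 and Inhbe, showed no common direction. Of 13 tested of 18 listed, 0 passed the threshold, 6 had lower and 7 had higher means, and the log2 changes had a median of 0.09. Without overlap, 2 were higher and 1 lower, beside 9.20% and 10.6% of all genes tested. Chac1, a glutathione-degrading enzyme, was lower without overlap at 2.29, 0.762 and 3.07 FPKM in knockouts and 4.23, 4.96 and 6.40 FPKM in controls (log2 change -1.10, adjusted p = 0.209). Nupr1, a stress-induced chromatin protein, was higher without overlap at 1.41, 2.86 and 2.40 FPKM in knockouts and 0.689, 0.745 and 1.32 FPKM in controls (log2 change 0.74, adjusted p = 0.210). Ddit3, which encodes the stress factor CHOP, was also higher without overlap at 3.28, 3.41 and 4.51 FPKM in knockouts and 2.37, 2.99 and 2.81 FPKM in controls (log2 change 0.34, adjusted p = 0.320). Asns, asparagine synthetase, overlapped (log2 change 0.53, adjusted p = 0.516), as did Atf4 itself (-0.21, adjusted p = 0.633).

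Genes of PPARα and the fasting response mostly had negative log2 changes. Among 16 tested genes this held for 15, of which 7 were lower without overlap, beside 10.6% of all genes tested. The threshold was passed by 0, and the median log2 change was -0.44. The list was chosen with the lower level of fatty acid oxidation genes in these livers already known, so its direction is not independent evidence. Cyp4a10, a fatty acid hydroxylase, measured 74.7, 95.2 and 122 FPKM in knockouts and 207, 261 and 222 FPKM in controls (log2 change -1.25, adjusted p = 0.105). Ehhadh, a peroxisomal oxidation enzyme, measured 112, 157 and 197 FPKM in knockouts and 237, 238 and 267 FPKM in controls (adjusted p = 0.225). Vnn1, a pantetheinase, and Angptl4, an inhibitor of lipoprotein lipase, had log2 changes of -0.73 and -0.64 (adjusted p = 0.181 and 0.219). Ppara itself had a log2 change of 0.0083 (adjusted p = 0.992).

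Among receptors for FGF21 and GDF15, 4 of 7 were tested and 0 passed. Lower without overlap was 1 of the 4, beside 10.6% of all genes tested. Fgfr4, the main hepatocyte FGF receptor, measured 4.91, 5.87 and 5.61 FPKM in knockouts and 7.70, 5.94 and 7.58 FPKM in controls. The groups did not overlap, though knockout 2 and control 2 nearly met (log2 change -0.32, adjusted p = 0.322). Klb, which encodes β-Klotho, and Fgfr3 overlapped with log2 changes of -0.28 and -0.27 (adjusted p = 0.439 and 0.434), and Fgfr2 had 0.11 (adjusted p = 0.801). Fgfr1, below the filter and so not tested, went the other way from Fgfr4. It measured 0.576, 0.717 and 0.622 FPKM in knockouts and 0.236, 0.335 and 0.457 FPKM in controls, without overlap. Ret was below the filter as well, and Gfral was listed at 0 in all 6 livers.

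Ahsg (fetuin-A) and Fetub (fetuin-B) are cystatin-family plasma proteins of hepatocytes and lie 18884 bases apart on the same strand of chromosome 16. Fetuin-A binds calcium phosphate and inhibits insulin receptor kinase, and fetuin-B blocks the egg protease ovastacin. Ahsg (ENSMUSG00000022868, 22891277 to 22899449) was by far the most abundant of the 10 genes, at 3093, 3356 and 2621 FPKM in knockouts 1 to 3 and 3096, 3654 and 2902 FPKM in controls 1 to 3. The groups overlapped, with a log2 change of -0.09 (95% interval -0.53 to 0.35, adjusted p = 0.875). The change was 0.053 when libraries were scaled by total reads, and also positive without knockout 3 or control 2. Fetub (ENSMUSG00000022871, 22918334 to 22939778) measured 181, 119 and 156 FPKM in knockouts 1 to 3 and 245, 200 and 203 FPKM in controls 1 to 3. Every knockout lay below every control. The mean was 152 ± 31.0 FPKM in knockouts and 216 ± 25.4 FPKM in controls (SD, n = 3 each), a ratio of 0.702, on 4675 to 7220 reads. The log2 fold change was -0.52 (SE 0.18, 95% interval -0.94 to -0.10, adjusted p = 0.279). It was at an unadjusted p under 0.05 in 12 of 13 alternatives, the exception being without control 1 (log2 change -0.43, adjusted p = 0.561).

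Lect2 encodes a chemotactic hepatokine that also modulates Wnt signalling (ENSMUSG00000021539, chromosome 13, 56542464 to 56548502, minus strand). It measured 92.5, 56.4 and 61.4 FPKM in knockouts 1 to 3 and 101, 112 and 77.1 FPKM in controls 1 to 3. Knockout 1 lay above control 3, so the groups overlapped, while the other knockouts lay below all controls. The log2 change was -0.48 (SE 0.22, 95% interval -1.003 to 0.05, adjusted p = 0.397), and it was -0.69 without knockout 1, with an adjusted p of 0.175. The knockout-to-control ratio of same-numbered livers, which the labels do not pair, was 0.914, 0.502 and 0.795.

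Enho encodes adropin, a peptide of energy metabolism, and had the most positive log2 change of the 10 genes (ENSMUSG00000028445, chromosome 4, 41638144 to 41640324, minus strand). It measured 34.6, 35.4 and 21.8 FPKM in knockouts 1 to 3 and 20.4, 25.4 and 15.4 FPKM in controls 1 to 3. Knockout 3 lay below control 2, while knockouts 1 and 2 exceeded every control. The mean was 30.6 ± 7.60 FPKM in knockouts and 20.4 ± 5.01 FPKM in controls (SD, n = 3 each). The log2 change was 0.56 (SE 0.24, 95% interval -0.0035 to 1.12, adjusted p = 0.360). Among same-numbered livers the ratio was 1.70, 1.39 and 1.42, although the labels state no pairing. A limma fit blocked on the replicate number gave an SE of 0.10 and an adjusted p of 0.122, which rests on that unstated pairing. Dnaic1, which meets the end of Enho over 15 bases on the other strand, measured 0.745, 0.592 and 0.505 FPKM in knockouts and 0.120, 0.471 and 0.108 FPKM in controls.

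**Figure D3:**
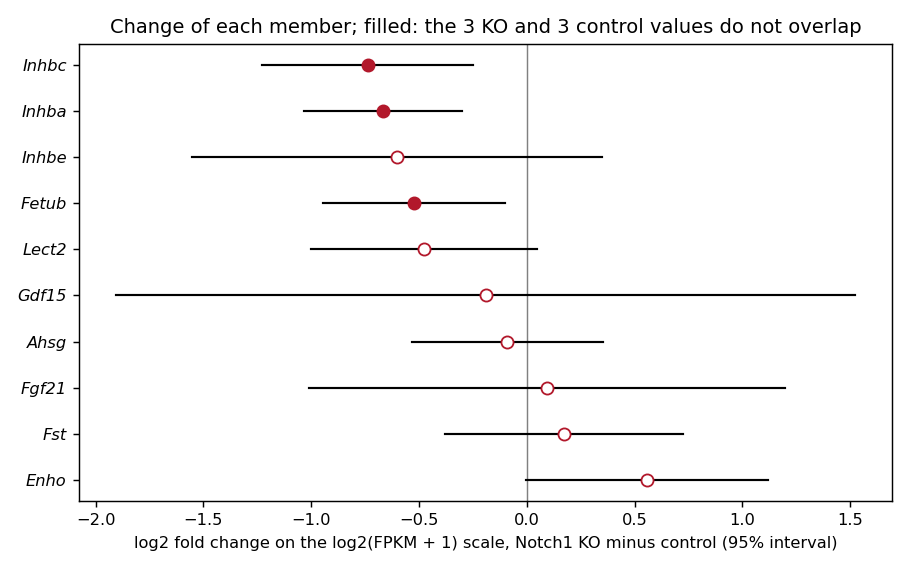
Log2 fold change of each gene on the log2(FPKM + 1) scale (x axis, knockout minus control) with its 95% interval from limma. Filled points mark Inhbc, Inhba and Fetub, whose groups do not overlap; the interval of Gdf15, from -1.90 to 1.52, is the widest.

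Per length, FPKM levels ran from Ahsg through Fetub and Lect2 to Enho in all 6 livers, with no overlap of neighbouring ranges. Enho exceeded Gdf15 in 4 of 6 livers. Gdf15 and Inhbc exchanged places between livers, each higher in 3 of 6, as did Inhbe and Fgf21. Fgf21 exceeded Inhba in 5 of 6 livers. Inhba exceeded Fst in all 6 livers, although their ranges overlapped. Highest and lowest liver differed 1.39-fold for Ahsg and 7.11-fold for Gdf15, the extremes among the 10 genes.

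The genes whose levels ran closest to Inhba, Inhbc and Fetub, the 3 with the smallest p, were sought among up to 4995 others averaging 5 FPKM or more, by Pearson's r of log2(FPKM + 1) over the 6 livers, which fall into 2 groups. Closest to Inhba were Uba1, which activates ubiquitin, Pias2, a SUMO ligase, and Rrs1, a ribosome assembly factor (r of 0.99, 0.98 and 0.98). Closest to Inhbc were Cyp2f2, a cytochrome P450, Zfp655 and Cyp4f13 (r of 0.99, 0.99 and 0.98). Closest to Fetub were Ptges3, an HSP90 co-chaperone, Ces3b, a carboxylesterase, and Gm44096 (r of 0.99 each). These r are the highest of up to 4995 and rest on 6 points. Whether they exceed what unrelated genes would reach was not tested, so they are a description only.

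Other hepatokines had changes in both directions. Of 23 tested of 25 listed, 9 had higher and 14 lower means, and 0 passed the threshold, with a median log2 change of -0.09. Without overlap, 2 were higher and 5 lower, beside 9.20% and 10.6% of all genes tested. Angptl4 is on this list and on the PPARα and fasting list. Angptl8, a feeding-induced regulator of lipoprotein lipase, measured 65.3, 53.7 and 48.5 FPKM in knockouts and 29.6, 20.7 and 20.03 FPKM in controls (log2 change 1.23, adjusted p = 0.105). Leap2, the antagonist of the ghrelin receptor, measured 192, 230 and 129 FPKM in knockouts and 104, 127 and 105 FPKM in controls (log2 change 0.67, adjusted p = 0.265). Igf1 measured 73.0, 59.1 and 52.3 FPKM in knockouts and 83.9, 83.4 and 77.3 FPKM in controls (log2 change -0.41, adjusted p = 0.271). Without knockout 2, Fgl1, a fibrinogen-like hepatokine, passed with a higher level in the knockouts (log2 change 1.599, limma adjusted p = 0.0326). In that fit 29 of all 12022 genes tested passed. The knockout left out had the lowest Fgl1 of its group, at 51.3 FPKM beside 257 and 185 FPKM in knockouts 1 and 3.

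Acute phase genes stand beside the hepatokines because inflammation is known to lower fetuin-A. Of 20 tested, 19 had higher means with a median log2 change of 0.42 and 0 past the threshold. Without knockout 2, 8 passed (Apcs, Hp, Lbp, Lcn2, Orm2, Saa1, Saa2 and Saa3, all higher), beside 29 of all 12022 genes tested. That fit leaves out the knockout without raised Saa2, so these calls are not independent evidence. Their sum was 24198, 8692 and 23366 FPKM in knockouts 1 to 3 and 12345, 10869 and 10599 FPKM in controls 1 to 3. Saa3 was higher without overlap (log2 change 1.46, adjusted p = 0.0877), while Saa2, Saa1 and Hp had log2 changes of 4.99, 3.84 and 0.97 (adjusted p = 0.291, 0.360 and 0.360). Among the knockouts, Fetub, Inhbc, Inhbe, Lect2 and Gdf15 were lowest in knockout 2, the knockout without raised Saa2. Ahsg, Enho and Fst were highest there, and Inhba and Fgf21 lay between the other knockouts. The part of inflammation in these levels was not tested.

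Marker lists of other cells gave the following values. Hepatocyte markers had lower means in 10 of 11 genes (median log2 change -0.25), with sums of 34534 to 45226 FPKM in knockouts and 48523 to 56409 FPKM in controls. Cyp2e1, a hepatocyte cytochrome P450, had a log2 change of -0.97 (adjusted p = 0.204). The part of this shift in the levels of Inhbc, Fetub and Lect2, which are hepatocyte genes, was not tested. Mesothelial markers had a median log2 change of 1.72 over 13 tested genes, of which Slpi and Krt7 had the smallest p (log2 change 3.05 and 1.51, adjusted p = 0.107 and 0.115). Stellate and fibroblast markers had a median of 0.31 over 14, endothelial markers -0.14 over 10, macrophage markers 0.04 over 11, neutrophil markers 0.58 over 4 and bile duct markers 0.52 over 5, with 0 genes past the threshold in each. Without control 3, the control with the most mesothelial RNA, 8 mesothelial markers passed, all higher in the knockouts, beside 58 of all 12022 genes tested. Leaving out that control lowers the control mean of these markers, so the calls are not independent evidence. Krt7 and Krt19 are on both the mesothelial and the bile duct list.

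**Figure D4:**
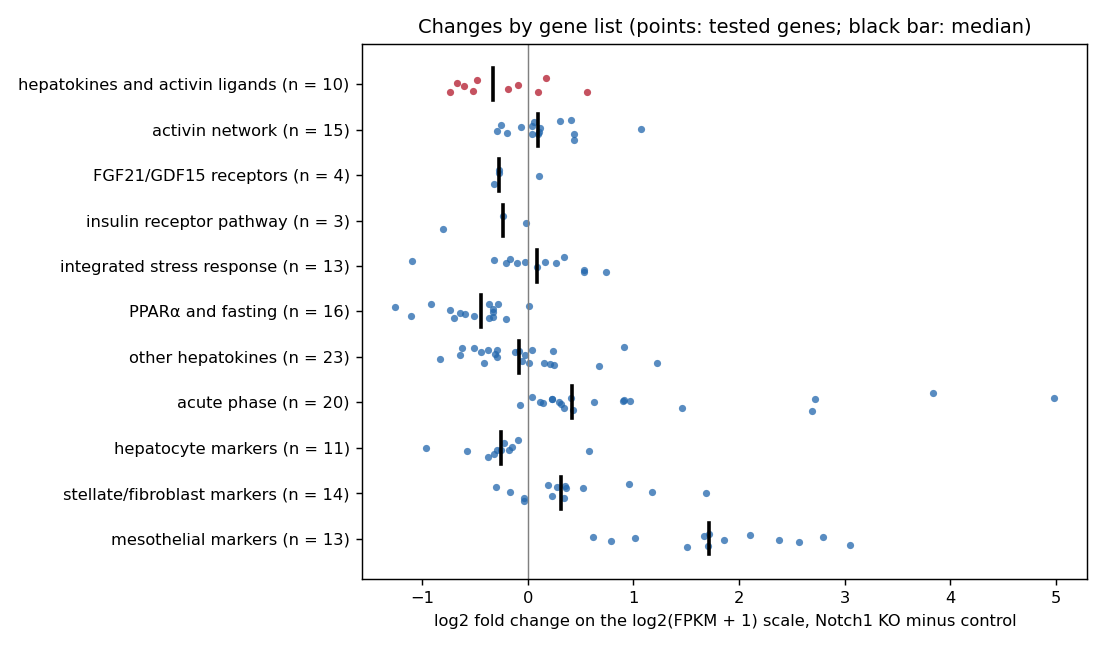
Log2 fold change on the log2(FPKM + 1) scale (x axis, knockout minus control) of each tested gene, by list (rows, with the number tested). Black bars are medians: -0.33 for the hepatokines and activin ligands, -0.44 for PPARα and fasting genes, 0.42 for acute phase genes and 1.72 for mesothelial markers.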

How the data were processed

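The authors deposited 1 table of gene-level FPKM values for 6 libraries, 3 per group, with gene names, coordinates and lengths. Poly-T selected RNA, extracted with Trizol, went into NEBNext Ultra libraries, per the labels' protocols. GRCm38, featureCounts 1.5.0-p3 and HISAT2 2.0.5 appear in the submitters' processing notes; the sources used here do not give their settings, strand handling or the FPKM formula. Multiplying FPKM by gene length and dividing by a constant of each library gave whole reads, to within 0.1, for 100% of values above 0. That constant was inversely proportional to the library's median-of-ratios size factor, so the deposited values were already scaled between libraries. Those whole reads give the depths printed.

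The 12022 genes averaging 0.5 FPKM or more were fitted with limma 3.58.1 in R 4.3.3 (lmFit, eBayes with trend) after log2(FPKM + 1), two-sided, and the script was tested on simulated reads. Each p-value sets the difference between group means against the spread between these samples, with limma drawing on the variances of all genes fitted. Nothing in the labels states how mice were paired. Deviations of same-numbered livers correlated at 0.31, 0.16 and 0.101, while knockout 2 with control 3 gave 0.11, above the lowest of these. The replicate number was used as a block in an alternative only. The genes described and the lists were chosen with earlier results of these data known. Genes named from the lists are up to 4 per list with the smallest p, and others of a list are named for their role, chosen after their values were seen. The lists were the activin network, FGF21 and GDF15 receptors, the integrated stress response, PPARα and fasting, other hepatokines, insulin receptor signalling, the acute phase and markers of 7 cell types. Gene coordinates matched GENCODE M21 for all 10 genes. Antisense genes overlap Fst, Inhba, Inhbc, Inhbe, Ahsg and Enho; without strand their reads cannot be told apart, and none exceeded 1.16 FPKM.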

Additional observations from a re-analysis of the deposited data

How the results depend on the processing

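The results were recomputed under 13 alternatives. None of the 10 genes passed the threshold in any of them, and Inhba, Inhbc, Inhbe, Fetub, Lect2 and Enho kept their direction in all. Genes called across the table numbered 3, but 1 with a pseudocount of 0.1, 0 with no filter on low values, 15 with limma voom on the recovered reads, and 0 with the replicate block, which changed no call among the 10 genes. With single libraries left out the count ran from 0 to 58: it was 0 without knockout 1 or control 2, 1 without control 1, 29 without knockout 2 and 58 without control 3. Genes of the 10 at an unadjusted limma p under 0.05 numbered 3, beside 13.9% of all genes tested. Over the alternatives they ran from 2 without control 1 to 5 with voom, which added Lect2 and Enho. All genes at that level made up 9.62% without control 1 and 14.5% with voom. With single libraries left out, other hepatokines called ran from 0 to 1 and acute phase genes called from 0 to 8. In the same leave-outs, the log2 change of Fgf21 ran from -0.35 to 0.50, of Gdf15 from -0.93 to 0.37, of Fst from -0.024 to 0.40 and of Ahsg from -0.17 to 0.0088; over the other alternatives Fst reached 0.43 (voom) and Ahsg -0.20 (quantile normalization), and Ahsg was at 0.053 with scaling by total reads, which shifted the median of all genes by 0.10. Fst was not tested with a filter at 1 FPKM. The cause of these changes was not tested. Depth limits Fst most, at 14 to 108 reads, where 3 reads correspond to 0.033 to 0.044 FPKM.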

Other observations

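Genes of insulin receptor signalling, which fetuin-A is known to inhibit, had lower means in all 3 tested of 4 listed, with 0 past the threshold. By limma 1 was lower at an unadjusted p under 0.05, beside 7.06% of all genes tested. Irs2, an adaptor of the insulin receptor, measured 4.84, 4.78 and 8.44 FPKM in knockouts 1 to 3 and 8.30, 9.90 and 15.8 FPKM in controls 1 to 3. Knockout 3 lay above control 1, so the groups overlapped (log2 change -0.81, limma adjusted p = 0.276). As with Fgf21, the liver numbered 3 was the highest of each group. Insr, the receptor, and Irs1 had log2 changes of -0.23 and -0.02 (adjusted p = 0.429 and 0.975). Igf1r was below the filter and went the other way. It measured 0.175, 0.178 and 0.261 FPKM in knockouts and 0.0556, 0.104 and 0.158 FPKM in controls.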
